A study of Mus musculus with 6 samples.

Results

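The 10 genes described here mark macrophages and related myeloid cells in general: Csf1r, Cd68, Lyz2, Adgre1, Fcgr1, Mertk, Apoe, Tyrobp, Fcer1g and Aif1. They were taken by symbol from a table of 17030 genes, and all 10 were present. RNA of mononuclear cells isolated from skeletal muscle was sequenced in 6 mice, all male and of strain C57BL/B6, whose age is not given in the sources used here. Every mouse bore an LLC tumour, grown from injected Lewis lung carcinoma cells, and was given tamoxifen on days 10 to 14 after that injection. Tamoxifen makes Cre active in the mice that carry it. In 3 mice the genotype was Pax7 Cre ErT x IKKbfl/fl, called Pax7-CreERT here, and in the other 3 it was IKKbfl/fl, called control. Floxed alleles of IKKb, the NF-kB kinase encoded by Ikbkb, were thus shared by both groups. Cre was driven by Pax7, the transcription factor of muscle satellite cells, so the genotypes differ by a recombinase meant for muscle stem cells and not for macrophages. No group carried Cre without the floxed alleles or lacked a tumour, so the deletion and the presence of Cre cannot be told apart here.

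Macrophages are phagocytes that take up dead cells and debris. Their survival in tissues depends on signals through the CSF1 receptor, and much of their gene programme is driven by the transcription factor PU.1. In skeletal muscle they remove damaged fibres and help to guide regeneration. Several of the 10 genes are also active outside macrophages: Lyz2, Tyrobp and Fcer1g in neutrophils, and Apoe in Schwann and other stromal cells. In RNA from mixed cells, fewer cells of a type and less RNA per cell cannot be told apart.

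Levels are given in CPM, which scales the reads of each gene to a library total of 1000000. The libraries held an estimated 4054000 to 13355000 reads, so 1 CPM stood for 4.05 to 13.4 reads. Markers of the cells expected in such a preparation were present: the endothelial gene Pecam1 had a mean of 2064 CPM in the Pax7-CreERT libraries and 2275 CPM in the controls, and the leukocyte gene Ptprc, which encodes CD45, 39.6 and 40.9 CPM. Ikbkb ranged from 48.4 to 57.4 CPM with overlapping groups, but its total over all exons does not check the deletion. Control replicate 3 stood apart. It was the shallowest library, and haemoglobin took up 12.6% of its CPM, with 1.84% to 4.83% in the other 5. Each group holds 3 mice. The limma p-values set the difference between the groups against the spread of these 6 libraries within them. The fit draws that spread toward the one of all tested genes at like levels.

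No member passed the test of a difference between the genotypes. Of the 10 genes, 7 had a higher and 3 a lower mean log2 level in the Pax7-CreERT mice, and 4 and 6 with TMM factors, which rescale each library by a trimmed mean of its gene ratios. Over all tested genes, 68.0% were higher with the CPM as deposited and 50.9% with TMM factors. At an adjusted p under 0.05 with limma 0 of the 10 members passed, and the lowest adjusted p among the members was 0.896. At an unadjusted p under 0.05 there were also 0 of 10. Over all 14763 genes tested, 0.00677% passed the adjusted threshold, which is 1 gene, and 5.52% had an unadjusted p under 0.05. That gene was Zfp697, which encodes a zinc finger protein and fell to 18.6 ± 3.42 from 65.4 ± 9.57 CPM (SD, n = 3 each; log2 fold change -1.77, limma adjusted p = 0.0231). The median log2 fold change of the 10 genes was 0.04, beside 0.09 for all tested genes. With TMM factors the medians were -0.04 and 0.00, and with haemoglobin left out of the totals -0.01 and 0.04. Without control replicate 3 they were 0.22 and 0.04. Fold changes are of log2(CPM + 1), Pax7-CreERT minus control, and this constant understates the changes of genes near 1 CPM. The groups did not overlap for 2 of the 10 genes, Mertk and Apoe, which lay in opposite directions. For all tested genes the share without overlap was 11.0%.

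**Figure D1:**
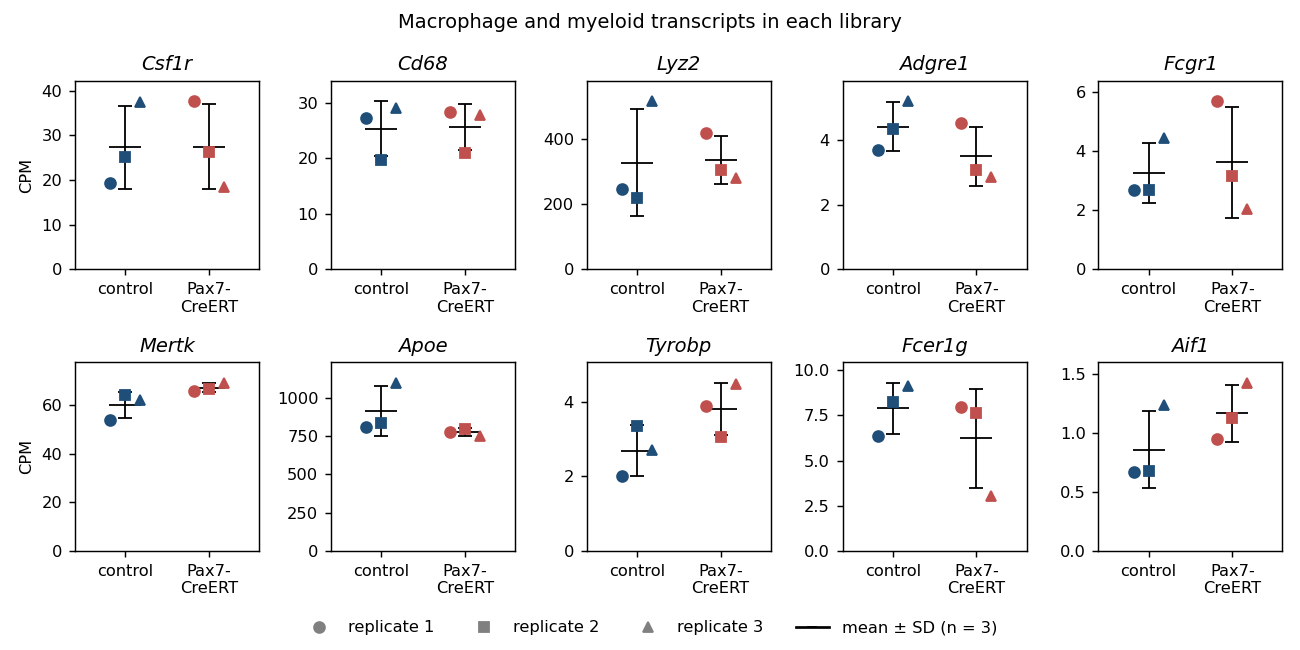
Level of each of the 10 genes in CPM (y axis, from 0) in the control and Pax7-CreERT libraries, with 1 point per mouse and the mean ± SD of 3 mice in black. The groups overlap in all panels but Mertk, where the Pax7-CreERT values of 65.8 to 69.4 CPM lie above the controls, and Apoe, where those of 748 to 798 CPM lie below them.

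Csf1r and Adgre1 encode surface receptors that define the lineage. Csf1r (mm10 chromosome 18, 61105572 to 61131139), the receptor for CSF1 and IL-34, measured 37.6, 26.4 and 18.5 CPM in Pax7-CreERT replicates 1, 2 and 3 and 19.4, 25.1 and 37.5 CPM in control replicates 1, 2 and 3. Each group thus held 1 high and 1 low library at almost the same levels. The group means were 27.5 ± 9.61 and 27.3 ± 9.26 CPM (SD, n = 3 each). Its log2 fold change was 0.00 (SE 0.28, limma adjusted p = 0.998). The 95% interval, -0.62 to 0.63, leaves room for a change of 0.648-fold to 1.55-fold. Adgre1 (chromosome 17, 57358686 to 57483529) encodes F4/80, the classic mouse macrophage antigen. Adgre1 measured 4.52, 3.07 and 2.85 CPM with Cre and 3.68, 4.31 and 5.18 CPM without, from an estimated 14 to 43 reads per library. Its log2 fold change was -0.28 (SE 0.24, limma adjusted p = 0.905).

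The genes of the phagocyte's lysosome and secretions, Cd68, Lyz2 and Apoe, were the most abundant members per transcript length. Cd68 (chromosome 11, 69664213 to 69666170), a heavily glycosylated lysosomal membrane protein, spanned 1.47-fold over the libraries, with 28.3, 20.97 and 27.9 CPM in the Pax7-CreERT libraries and 27.2, 19.8 and 29.1 CPM in the controls. In each group replicate 2 was the low one, but replicate numbers only follow the order of the samples and pair no mice. Its means of 25.7 ± 4.11 and 25.4 ± 4.92 CPM (SD, n = 3 each) differed by 0.02 on the log2 scale (SE 0.19, limma adjusted p = 0.988).

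Lyz2 (chromosome 10, 117277541 to 117282272), the lysozyme of macrophages and neutrophils and the locus behind a widely used myeloid Cre line, measured 418, 306 and 281 CPM in Pax7-CreERT replicates 1, 2 and 3. The controls measured 248, 221 and 517 CPM. Control replicate 3 was the highest of all libraries, while the other controls were the lowest. Over all 6 libraries the groups averaged 335 ± 72.9 and 328 ± 164 CPM (SD, n = 3 each). The log2 fold change was 0.12 (SE 0.29, limma adjusted p = 0.966). Without control replicate 3 the control mean was 234 CPM, every Pax7-CreERT value lay above both controls, and the log2 fold change was 0.50 (SE 0.17, 95% interval 0.13 to 0.86). That difference did not pass either (limma adjusted p = 0.627). With that library left out, the groups did not overlap for 4 of the 10 members and for 21.4% of all tested genes. Lyz2 was the 1 member with an unadjusted p under 0.05 without that library, where 6.5% of all genes had one. The fold change of Lyz2 was negative, at -0.05, -0.03 and -0.11, without Pax7-CreERT replicate 1, control replicate 1 or control replicate 2, so its sign rests on single libraries.

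Lyz2 has a near-identical neighbour, Lyz1, the lysozyme of intestinal Paneth cells, whose longest principal transcript shared 95.96% of 1262 aligned bases with it. Reads from identical stretches, of up to 118 bases, could have been assigned to either gene, and the counting rule is not given in the sources used here. The deposited Lyz1 values were 15.8, 5.69 and 6.11 CPM with Cre and 4.01, 4.72 and 15.3 CPM without. Lyz1 thus made up 1.59% to 3.63% of the pair, and it was highest in the same libraries as Lyz2, Pax7-CreERT replicate 1 and control replicate 3. The summed pair ranged from 226 to 532 CPM and had the same order of libraries as Lyz2 alone. The likeness reaches into the promoters. The 100 bases before each start are printed from RefSeq (GRCm38.p6, gene strand) to show it, with that of Fcgr1, which was likewise highest in those 2 libraries. Capitals mark GAGGAA or AGGAAG on either strand, letter strings at the core of PU.1 and other ETS sites that overlap each other where a promoter holds GAGGAAG.
Lyz2: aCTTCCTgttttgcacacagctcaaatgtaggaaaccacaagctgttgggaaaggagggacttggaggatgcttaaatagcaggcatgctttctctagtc
Lyz1: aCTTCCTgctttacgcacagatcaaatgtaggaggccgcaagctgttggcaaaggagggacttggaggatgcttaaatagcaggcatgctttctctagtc
Fcgr1: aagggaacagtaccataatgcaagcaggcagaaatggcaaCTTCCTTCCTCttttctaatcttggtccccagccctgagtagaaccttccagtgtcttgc
The windows lie at chr10:117282273-117282372, chr10:117292869-117292968 and chr3:96293970-96294069, all on the minus strand. The Lyz2 and Lyz1 windows were identical at 92 of 100 positions without gaps. Promoter entries were matched for 7 members. In the 250 bases before their starts GAGGAA was found in 4 of 7 (Cd68, Fcgr1, Apoe, Aif1), against 23.1% of 27025 promoters, and AGGAAG in 3 of 7 (Lyz2, Fcgr1, Fcer1g), against 29.2%. Mertk had neither string. A match is a string of letters and no evidence of binding.

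Apoe (chromosome 7, 19696244 to 19699188) encodes apolipoprotein E, a lipid carrier that macrophages secrete when they load with cholesterol. It was the most abundant member, at 777, 798 and 748 CPM in the Pax7-CreERT libraries and 807, 833 and 1099 CPM in the controls. All 3 Pax7-CreERT values lay below all 3 controls, by a small margin from control replicates 1 and 2. Mean levels were 774 ± 25.3 and 913 ± 162 CPM (SD, n = 3 each). Its log2 fold change was -0.22 (SE 0.17, limma adjusted p = 0.8995). The exact 2-sided permutation test gave p = 0.1, the smallest that 3 mice against 3 can give. Without control replicate 3 the log2 fold change was -0.08 (limma adjusted p = 0.979). The direction of Apoe was the same under each of 13 alternatives, from -0.32 to -0.08.

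**Figure D2:**
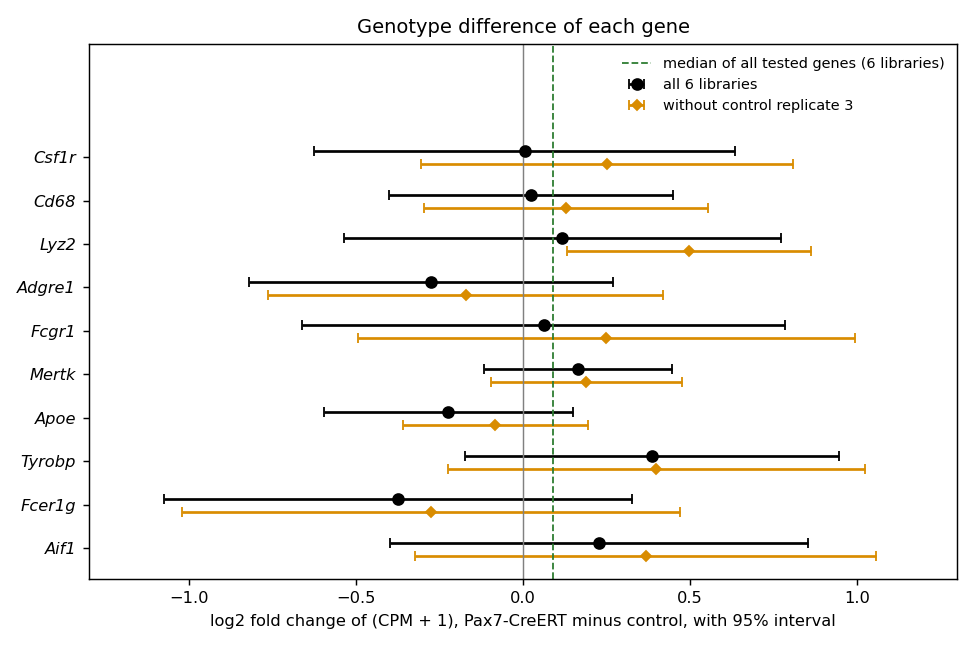
Log2 fold change of CPM + 1, Pax7-CreERT minus control, for each gene (x axis) with its 95% interval, from all 6 libraries (black) and without control replicate 3 (orange); the dashed line is the median of all tested genes, 0.09. All black intervals include 0, and of the orange ones only that of Lyz2, 0.13 to 0.86, does not.

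Fcgr1, Tyrobp and Fcer1g belong to the immune receptor signalling of myeloid cells. Fcgr1 (chromosome 3, 96282909 to 96293969) encodes CD64, the high-affinity receptor for immunoglobulin G. Fcer1g (chromosome 1, 171229572 to 171234349) encodes the gamma chain through which that receptor and others signal. Tyrobp (chromosome 7, 30413782 to 30417579) encodes DAP12, a related adaptor used by TREM2 and other receptors. All 3 were faint, and the estimated reads behind each value bound what could be seen.

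Fcgr1 measured 5.68, 3.14 and 2.04 CPM with Cre and 2.67, 2.69 and 4.44 CPM without, from 10 to 54 reads. Pax7-CreERT replicate 1 was the highest and replicate 3 the lowest of all 6 libraries, so both extremes lay in 1 group. Its log2 fold change was 0.06 (SE 0.32, limma adjusted p = 0.981). Fcer1g measured 7.99, 7.64 and 3.05 CPM with Cre and 6.35, 8.22 and 9.13 CPM without. The value of 3.05 CPM in Pax7-CreERT replicate 3, an estimated 15 reads, stood apart from the other 5 libraries. The log2 fold change was -0.37 (SE 0.31, limma adjusted p = 0.8995) and nearly 0 (-0.0015) without that library.

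Tyrobp had the largest positive fold change of the 10 genes. Its levels were 3.89, 3.07 and 4.48 CPM with Cre and 2.01, 3.37 and 2.71 CPM without, from 11 to 41 reads, and the groups overlapped through Pax7-CreERT replicate 2 and control replicate 2. On average the groups stood at 3.81 ± 0.707 and 2.696 ± 0.681 CPM (SD, n = 3 each). The log2 fold change was 0.39 (SE 0.25, limma adjusted p = 0.896). The counting error alone had an SD of 15.6% to 30.2% per library. In Pax7-CreERT replicate 3 the adaptors parted: Tyrobp was at its highest and Fcer1g at its lowest.

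Mertk and Aif1 close the set. Mertk (chromosome 2, 128698915 to 128803007) encodes a receptor kinase that binds apoptotic cells through the bridging proteins GAS6 and protein S. Its levels were 65.8, 66.9 and 69.4 CPM with Cre and 54.2, 64.1 and 62.2 CPM without. Every Pax7-CreERT value lay above every control, and the highest library was 1.28 times the lowest, the narrowest span of the 10 genes, beside a median span of 1.64 over all tested genes. Group means came to 67.4 ± 1.85 and 60.2 ± 5.28 CPM (SD, n = 3 each). Its log2 fold change was 0.16 (SE 0.13, limma adjusted p = 0.8995, exact 2-sided permutation p = 0.1). The groups overlapped with TMM factors, at 62.99 to 68.5 against 54.5 to 67.2, and also when haemoglobin was left out of the totals. Under these scalings the groups of Apoe stayed apart. An antisense gene, Gm14011, overlaps Mertk over 2435 bases, and whether the counting used strand is not given in the sources used here.

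Aif1 (chromosome 17, 35170986 to 35176052), the gene of the actin-binding protein IBA1 used to stain microglia and macrophages, was the faintest member. Its levels were 0.946, 1.123 and 1.42 CPM with Cre and 0.669, 0.674 and 1.23 CPM without. These values came from an estimated 9, 15 and 7 reads and 4, 5 and 5 reads. The log2 fold change was 0.23 (SE 0.28, limma adjusted p = 0.93), and its 95% interval of -0.40 to 0.85 leaves either direction possible at this depth. It was 0.37 when control replicate 3 was left out (limma adjusted p = 0.929) and 0.14 when Pax7-CreERT replicate 3 was.

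Levels were compared between genes after division by transcript length, so they depend on the length chosen. Per kilobase, Apoe stood at a mean of 599 CPM and Lyz2 at 252 CPM, and their ranges over the libraries did not overlap. Together they made up 88.5% to 91.4% of the summed CPM of the 10 genes. Far below followed Cd68 at 20.8, Mertk at 14.8, Fcer1g at 10.5, Csf1r at 5.83 and Tyrobp at 5.77 CPM per kilobase. The lowest were Fcgr1 at 1.33, Adgre1 at 1.22 and Aif1 at 1.16. From Cd68 down, each gene overlapped its neighbours in this order over the 6 libraries, except that Tyrobp, from 3.56, stayed above Fcgr1, up to 2.19. With the median instead of the longest principal transcript length, Csf1r and Fcer1g changed places, as did Fcgr1 and Adgre1. Adgre1 then stood at 4.29, Csf1r at 11.8 and Apoe at 1033 CPM per kilobase, while the other members moved less. For scale, Ptprc stood at 8.57 and the complement gene C1qa, which tissue macrophages express strongly, at 131.9 CPM per kilobase. By mean, Apoe and Lyz2 thus lay above C1qa and all other members below it. A level below this macrophage transcript was therefore not particular to the adaptor genes and Aif1.

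**Figure D3:**
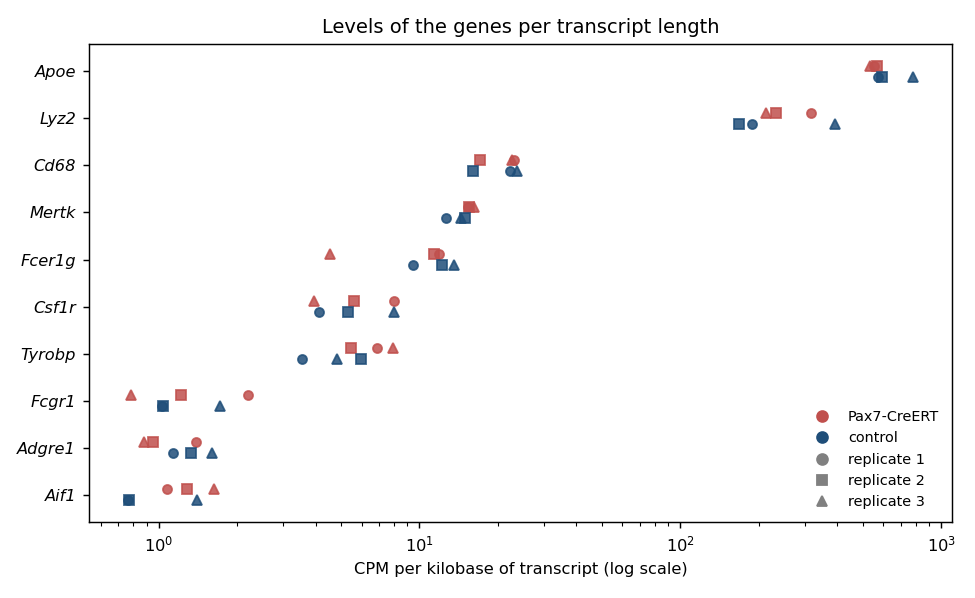
CPM per kilobase of transcript (x axis, log scale) of the 10 genes, ordered by mean, with 1 point per library (red, Pax7-CreERT; blue, control). Apoe and Lyz2 lie between 168 and 781, and Fcgr1, Adgre1 and Aif1 between 0.764 and 2.19.

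The libraries differed within each genotype as well. Control replicate 3 held the highest value of 5 of the 10 genes and 1 of the top 2 values of 8. Pax7-CreERT replicate 1 held a top 2 value of 6 genes, and Pax7-CreERT replicate 3 the highest value of 3 genes but the lowest of 5. Centred on the log2 scale, the median of the 10 genes was 0.34 in control replicate 3 and 0.20 in Pax7-CreERT replicate 1, against -0.22 to -0.04 in the other 4 libraries. Csf1r, Cd68, Lyz2, Adgre1 and Fcgr1 were highest in these 2 libraries, whereas Mertk, Tyrobp and Aif1 were highest in Pax7-CreERT replicate 3. For Cd68 the margin was small, at 29.1 and 28.3 CPM against 27.9 CPM in Pax7-CreERT replicate 3. Apoe was above its mean in control replicate 3 alone. The 10 genes therefore did not move as 1 block.

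Markers of other cells also differed between the libraries, in more than 1 pattern. The list of 8 tissue-resident macrophage genes followed Csf1r and Lyz2, with a centred log2 median of 0.93 in control replicate 3 and 0.45 in Pax7-CreERT replicate 1, against -0.47 to -0.24 elsewhere. Of its genes 4 were higher and 4 lower in the Pax7-CreERT mice (median log2 fold change -0.02), with 0 called by limma. The sign rested on single libraries: 8 of 8 were higher without control replicate 3 (median 0.36), and 7 of 8 were lower without Pax7-CreERT replicate 1, control replicate 1 or control replicate 2 (medians -0.27, -0.23 and -0.23). Its hyaluronan receptor Lyve1 measured 97.2 and 69.4 CPM in those libraries and 37.1 to 41.8 CPM in the others. The 5 B cell markers summed to 143.3 CPM in control replicate 3, 75.9 CPM in Pax7-CreERT replicate 3 and 11.5 to 13.2 CPM in the other 4. Of 7 erythroid markers 6 were highest in control replicate 3, and the seventh, Hba-a1, in control replicate 1 at 30.9 CPM. The centred median of 7 fibro-adipogenic progenitor markers was 1.04 in Pax7-CreERT replicate 1, where Csf1r was high, but 0.16 in control replicate 3, where it was high too. Of these 7 markers, 6 were higher in the Pax7-CreERT mice (median log2 fold change 0.40), 3 at an unadjusted p under 0.05, and 0 were called by limma. Their median was 0.06 without Pax7-CreERT replicate 1. The 7 myofibre genes were highest in Pax7-CreERT replicate 1 and lowest in control replicate 3, with centred medians of 1.11 and -0.86. All 7 were higher in the Pax7-CreERT mice (median log2 fold change 0.84), 6 at an unadjusted p under 0.05, and 0 were called by limma. The medians of the endothelial, mural, Schwann and satellite cell lists were likewise lowest in control replicate 3, at -0.34 to -0.16. All 6 mural genes, of pericytes and smooth muscle, were higher in the Pax7-CreERT mice (median log2 fold change 0.32). Of these, 2 had an unadjusted p under 0.05, and 0 were called by limma. Neutrophils also express Lyz2, Tyrobp and Fcer1g. The 11 neutrophil markers summed to 77.6 to 125.6 CPM with Cre and 102.5 to 148.5 CPM without. Of the 9 tested, 8 were lower in the Pax7-CreERT mice (median log2 fold change -0.43), with 0 called by limma, and leaving out Pax7-CreERT replicate 2 or control replicate 3 brought the median to -0.03 or -0.08. Of the 9, 1 had an unadjusted p under 0.05, and 3 with TMM factors. The groups did not overlap for 2 of the 9, Retnlg and Cxcr2, both lower with Cre, beside 11.0% of all tested genes. The calprotectin gene S100a9, the 1 gene, measured 36.3, 28.7 and 49.9 CPM with Cre and 46.1, 57.3 and 50.6 CPM without. Its log2 fold change was -0.44 (limma adjusted p = 0.896). S100a8 measured 12.4 to 28.1 CPM over the 6 libraries, while Ly6g was at or below 0.49 CPM. The part of these cells in the values of the 10 genes was not tested.

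**Figure D4:**
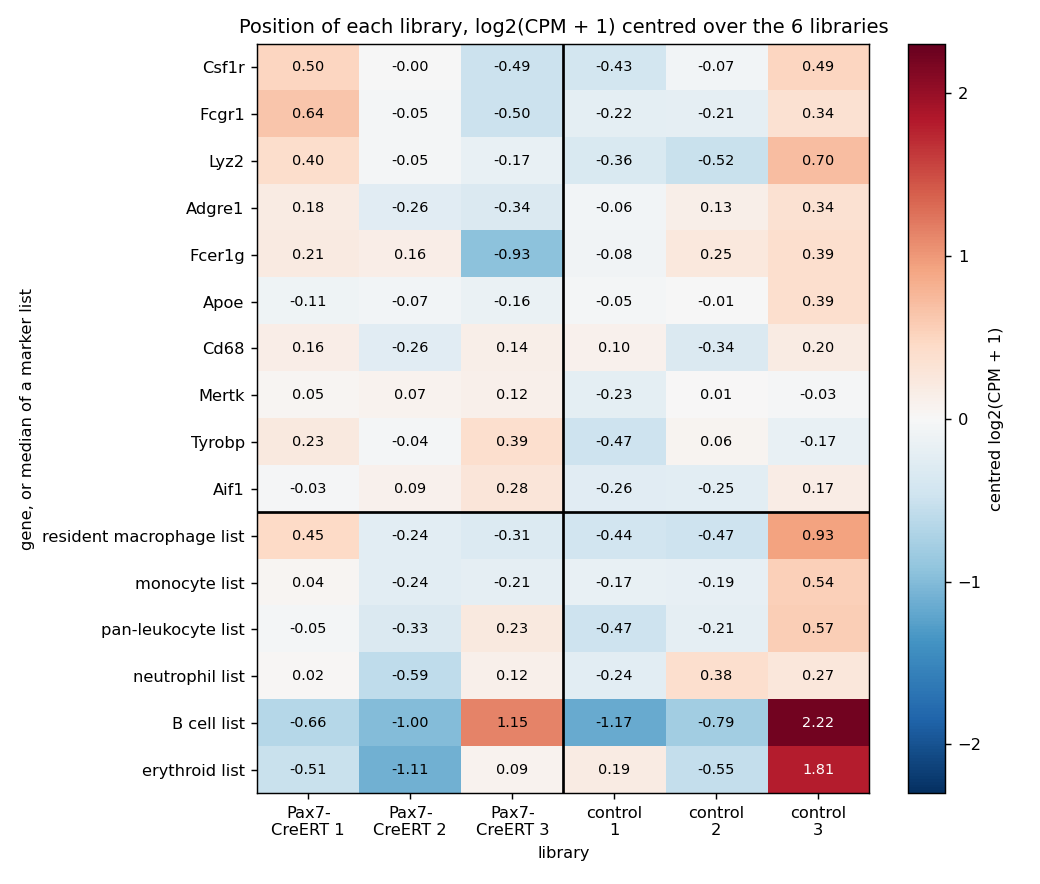
Log2(CPM + 1) of the 10 genes (top) and medians of 6 marker lists (bottom) in each library, centred over the 6 libraries; red is above and blue below the gene's mean. Control replicate 3 is above the mean for 8 of the 10 genes, and the resident macrophage list reaches 0.93 there.

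Genes that act with the members were read as 4 lists, and 0 genes of any of them passed in either direction under limma. Of 14 ligands and transcription factors around the CSF1 receptor, 8 were higher and 6 lower (median log2 fold change 0.05, and -0.03 with TMM factors). The median ran from -0.11 without Pax7-CreERT replicate 1 to 0.13 without Pax7-CreERT replicate 2, and was 0.11 without control replicate 3. Csf1, the ligand of Csf1r, measured 112, 84.0 and 86.9 CPM with Cre and 80.1, 94.98 and 87.6 CPM without, with overlapping groups. Spi1, the gene of PU.1, measured 10.2, 8.24 and 9.57 CPM against 5.68, 11.7 and 17.02 CPM, with control replicate 3 again the highest. The macrophage transcription factor gene Maf had the smallest p of this list, at 56.2 ± 10.2 against 46.9 ± 18.2 CPM (SD, n = 3 each; log2 fold change 0.31, limma adjusted p = 0.899).

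Among 19 tested receptors and kinases that work with DAP12 or the gamma chain, 10 were higher and 9 lower (median 0.03, and -0.05 with TMM factors), and 1 had an unadjusted p under 0.05. That was Trem1, an activating receptor that signals through DAP12, which measured 27.3, 16.5 and 23.8 CPM with Cre and 31.3, 36.2 and 26.9 CPM without (log2 fold change -0.48, limma adjusted p = 0.891). The groups overlapped narrowly. The direction of the list rested on single libraries. Without control replicate 3, 13 genes were higher and 6 lower (median 0.11), and without control replicate 1, 2 were higher and 17 lower (median -0.21). Without Pax7-CreERT replicate 1 or control replicate 2, 7 were higher and 12 lower, and 0 genes passed in any of these fits. In the fit that left out control replicate 3, 6 of the 19 had an unadjusted p under 0.05, where 6.5% of all tested genes had one. The kinase gene Fgr, at 16.2 ± 4.19 against 24.0 ± 8.67 CPM (SD, n = 3 each), had a log2 fold change of -0.50 (limma adjusted p = 0.896). Trem2, another DAP12 receptor, was at or below 1.75 CPM in every library.

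Of 16 genes of apoptotic cell uptake, 10 were higher and 6 lower (median 0.08, and -0.01 with TMM factors), and 1 had an unadjusted p under 0.05. Without control replicate 3, 14 were higher and 2 lower (median 0.31), where 59.1% of all tested genes were higher. In that fit 6 of the 16 had an unadjusted p under 0.05, against 6.5% of all tested genes, and 0 passed. Without Pax7-CreERT replicate 1 or control replicate 2, 8 were higher and 8 lower, with medians of 0.00285 and 0.02. The 1 gene with all 6 libraries was Stab1, a scavenger receptor of macrophages and sinusoidal endothelium, which measured 40.2, 41.2 and 27.4 CPM with Cre and 26.6, 26.3 and 25.97 CPM without, with no overlap (log2 fold change 0.43, limma adjusted p = 0.891). The separation from the controls was narrow in Pax7-CreERT replicate 3. Gas6, the bridging ligand of Mertk, measured 239, 245 and 218 CPM against 199.6, 179 and 259 CPM, and its groups overlapped. Axl, a kinase of the Mertk family, was highest in Pax7-CreERT replicate 1 at 101 CPM and lay between 51.1 and 75.5 CPM elsewhere.

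Of 14 tested lipid handling genes around apolipoprotein E, 7 were higher and 7 lower (median 0.02, and -0.07 with TMM factors), and 2 had an unadjusted p under 0.05. The median ran from -0.05 without Pax7-CreERT replicate 1 to 0.09 without Pax7-CreERT replicate 3, and was -0.03 without control replicate 3. Lpl, the lipoprotein lipase, measured 667, 525 and 872 CPM with Cre and 1210, 1508 and 984 CPM without. All Pax7-CreERT values lay below all controls, with a log2 fold change of -0.85 (limma adjusted p = 0.891). Lipa, the lysosomal acid lipase, measured 111, 121 and 144.1 CPM against 143.6, 169 and 178 CPM (log2 fold change -0.38, limma adjusted p = 0.891). Apoe, Lpl and Lipa thus had lower means in the same group, and none of the 3 passed over all genes. Lpl and Apoe are also made by fat and other stromal cells. The 5 adipocyte markers summed to 113.6 to 129.9 CPM with Cre and 143.1 to 175.7 CPM without. Lipe was the most abundant of them in every library. These sums did not overlap, but the groups overlapped for each of the 3 markers that were tested. All 3 were lower in the Pax7-CreERT mice, and 0 were called by limma. The part of fat and other stromal cells in the result was not tested.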

How the data were processed

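The authors deposited 1 table of CPM values, reads per 1000000 reads assigned to 17030 genes with 0.0001 added to each value, as read from the column sums. The submitters' processing notes name Partek, DESeq2 and mm10 without roles, and the aligner, counting rule and annotation release are not given in the sources used here. Columns were matched to mice by the number in the sample title, and 1 was subtracted from gene ends, which lay 1 base past RefSeq for 11051 genes. Depth was estimated from the CPM step of 1 read. Of values up to 20 reads 92.9% to 94.0% were whole within 0.05 read, too few to run a count test. Counting SDs cover the sampling of reads only.

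limma 3.58.1 (R 4.3.3, mean-variance trend) was fitted to log2(CPM + 1) of the 14763 genes that reached 1 CPM in 3 or more libraries, with Benjamini-Hochberg adjustment over all of them, after trial on simulated data. Lengths are of the longest principal protein-coding transcript in GENCODE M21, of the same build. The members and the 20 other gene lists were chosen with earlier results of these data known. Named genes were the 10 members, Ptprc, Lyz1, genes that passed, the 3 smallest p-values and, for cell types, the 2 highest levels of each list, and the 6 genes most like the members' median. Csf1, Spi1, Trem2, Gas6, Axl, C1qa, Gm14011, Hba-a1, Ikbkb, Zfp433 and Ly6g were named in addition, for their role, after their values were seen.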

Additional observations from a re-analysis of the deposited data

How the results depend on the processing

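Under each of 13 alternatives 0 of the 10 members passed, and the direction of Adgre1, Mertk, Apoe, Tyrobp, Fcer1g and Aif1 was that of the fit with all libraries. The members' median log2 fold change lay between -0.14 and 0.22 over all alternatives and was -0.05 with quantile normalization. Csf1r changed sign with TMM factors (-0.0853), without haemoglobin in the totals (-0.048) and with quantile normalization (-0.0861), as did Cd68 (-0.0655, -0.0283 and -0.0637) and, with TMM factors and quantile normalization, Fcgr1 (-0.0115 and -0.0399). When libraries were left out in turn, the log2 fold change ran from -0.243 to 0.25 for Csf1r, from -0.139 to 0.16 for Cd68, from -0.1139 to 0.497 for Lyz2 and from -0.2423 to 0.33 for Fcgr1. The number of all genes called was 2 with no filter on low values, where Zfp433 was added to Zfp697, and 0 to 1 when single libraries were left out, with 1 only without control replicate 3. The cause was not tested. No paired analysis was possible because the labels give no replicate number or other tie between mice of different genotype. Depth limits Aif1, Tyrobp, Fcgr1 and Adgre1 most, with as few as 4, 11, 10 and 14 estimated reads in a library.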

Other observations

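Of 9422 genes with a mean of at least 10 CPM, the 6 whose levels over the 6 libraries were most like the median of the 10 members were Cd163, Pld4, Adgrd1, 5031439G07Rik, Emb and Vps18. Their Pearson r with that median ran from 0.989 to 0.995. They were chosen for this likeness from many genes over few libraries, so it is a description. Cd163, a haemoglobin scavenger receptor of tissue macrophages, measured 55.3, 34.3 and 29.9 CPM in Pax7-CreERT replicates 1, 2 and 3 and 26.8, 36.5 and 77.7 CPM in control replicates 1, 2 and 3. Pld4, a lysosomal exonuclease gene of myeloid cells, measured 17.8, 10.8 and 7.53 CPM with Cre and 6.19, 9.43 and 23.2 CPM without. In both genes control replicate 3 and Pax7-CreERT replicate 1 were the high libraries and the groups overlapped.

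Monocyte markers lay mostly on the lower side in the Pax7-CreERT mice, 7 of 9 with a median log2 fold change of -0.17 and 0 called by limma, but leaving out control replicate 3 or control replicate 2 gave medians of 0.09 or -0.29. Chil3, a chitinase-like protein of inflammatory monocytes, measured 3.80 ± 1.23 against 7.01 ± 2.26 CPM (SD, n = 3 each; log2 fold change -0.73, limma adjusted p = 0.891). Mast cell markers had a median of 0.58 over 5 tested genes, with 0 called. It ran from 0.19 without Pax7-CreERT replicate 3 to 1.01 without control replicate 3. Among them was Ms4a2, the beta chain of the IgE receptor that signals with the product of Fcer1g. It measured 2.18 ± 1.41 against 0.697 ± 0.378 CPM (SD, n = 3 each; log2 fold change 0.84, limma adjusted p = 0.891). The groups did not overlap, as for 11.0% of all tested genes. These values came from an estimated 36, 15 and 8 reads with Cre and 5, 2 and 4 reads without.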
